A study of Homo sapiens with 4 samples.

Results

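The serpins are a superfamily of proteins with one shared fold, and most of them inhibit serine proteases. An inhibitory serpin offers a reactive loop as bait, and the protease that cleaves it is trapped in a covalent complex, so that each serpin molecule is used once. Several serpins have lost this activity and act as hormone carriers, chaperones or signalling proteins. In breast tissue the family is known for maspin, a serpin of normal breast epithelium, and for inhibitors of proteases that act at the cell surface.

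The serpins were taken by symbol, as genes whose name begins with SERPIN, a clade letter from A to I and a number, and 34 of the 23228 genes listed per library are described. They were described by clade, the evolutionary branch that the letter names, and by position on the chromosomes. RNA was sequenced from MDA-MB-231, a widely used human cell line derived from triple negative breast cancer, after cancer stem cells had been sorted by ALDEFLUOR, an assay of aldehyde dehydrogenase activity, and grown in MammoCult medium. Cells with stable lentiviral expression of a short hairpin RNA (shRNA) against KDM1A, a histone lysine demethylase, were compared with cells that expressed a control shRNA, with 2 libraries in each group. By their description, both groups came from the same sorted line and carried a vector. The labels do not say which KDM1A hairpin was used or how many. Whether a group's 2 libraries are separate cultures is not stated, and the p-values therefore reflect only how far these libraries scatter, which may be technical.

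The libraries held between 23902900 and 26923678 gene reads, and 3 reads in a library, the limit that a count of 0 allows, corresponded to 0.112 to 0.125 CPM, counts scaled by library total (counting error only). KDM1A, the targeted gene, had 561 and 649 reads in the KDM1A shRNA libraries, against 4660 and 4059 in the control shRNA libraries, a log2 fold change of -2.81 (SE 0.05, adjusted p = 2.2e-14 by edgeR's quasi-likelihood test). All 9 marker genes of MDA-MB-231 on the list used were tested and expressed, with VIM at 2116 ± 37.1 CPM in KDM1A shRNA cells and 1846 ± 20.6 CPM in control shRNA cells (SD, n = 2 each). Their levels were not equal between the groups. At an adjusted p under 0.05, 7 were higher and 2 lower in KDM1A shRNA cells, while 56.1% of all genes tested were called. CAV1 differed most, at 956 ± 3 CPM in KDM1A shRNA cells and 454 ± 9.06 CPM in control shRNA cells. The control libraries stood apart in another respect. CDKN2A, which is known to be deleted in MDA-MB-231, had 13 and 19 reads in the KDM1A shRNA libraries and 323 and 329 reads in the control shRNA libraries. Its neighbour MTAP had 15 and 14 reads in KDM1A shRNA libraries, against 271 and 256 in control shRNA libraries, and CDKN2B had 0 and 1 against 27 and 31. Both control libraries held these reads, so their source and the shRNA cannot be told apart in any result here, and their part in the falls of serpins was not tested. The same list of genes absent or low in MDA-MB-231 held ESR1, PGR and ERBB2. ESR1 had 0 and 1 reads in KDM1A shRNA libraries, against 7 and 9 in control shRNA libraries. PGR had at most 1 read in any library. ERBB2 went the other way and was higher in KDM1A shRNA cells (log2 fold change 0.41, edgeR adjusted p = 4.6e-06). In bulk RNA, fewer cells of a type and less RNA per cell also cannot be told apart.

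Of the 34 serpins, 9 had 0 reads in all 4 libraries (SERPINA4, SERPINA7, SERPINA10, SERPINA11, SERPINA13, SERPINB10, SERPINB11, SERPINB12 and SERPINB13). Another 7 had some reads and did not pass the filter on low counts: SERPINA6, SERPINA9, SERPINA12, SERPINB3, SERPINC1, SERPINE3 and SERPINI2. Except for SERPINB3, these had at most 3 reads in any library. The remaining 18 serpins were tested together with the other expressed genes. Of these, 16 were over the filter's minimum in every library, while SERPINB4 and SERPINB7 passed through the control libraries alone, so that their difference follows in part from the filter. At an adjusted p under 0.05, 5 serpins rose (SERPINB5, SERPINB8, SERPINF2, SERPINH1 and SERPINI1) and 10 fell (SERPINA1, SERPINA3, SERPINB1, SERPINB4, SERPINB6, SERPINB7, SERPINB9, SERPINE2, SERPINF1 and SERPING1). SERPINA5, SERPINB2 and SERPIND1 did not pass.

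These counts stand against a wide response of the whole transcriptome. Of the 14012 genes tested, 56.1% were called in either direction, against 83.3% of the tested serpins. Higher calls made up 27.3% of all genes and 27.8% of the serpins, so the share that rose was near the background. Lower calls made up 28.8% of all genes and 55.6% of the serpins. Falls of 2-fold or more were called for 6 of the 18 tested serpins (SERPINA3, SERPINB4, SERPINB7, SERPINE2, SERPINF1 and SERPING1), while 8.54% of all genes fell that far. SERPINB4 and SERPINB7 count in both lower figures, although they passed the filter through the control libraries alone. Libraries of the 2 groups were fully apart in 15 of the 18 tested serpins, or 83.3%, which is close to the 77.7% over all genes. The median log2 fold change of the tested serpins was -0.23, that of all genes -0.005. With 2 libraries against 2, an exact two-sided permutation test of a single gene cannot give a p below 0.333.

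**Figure D1:**
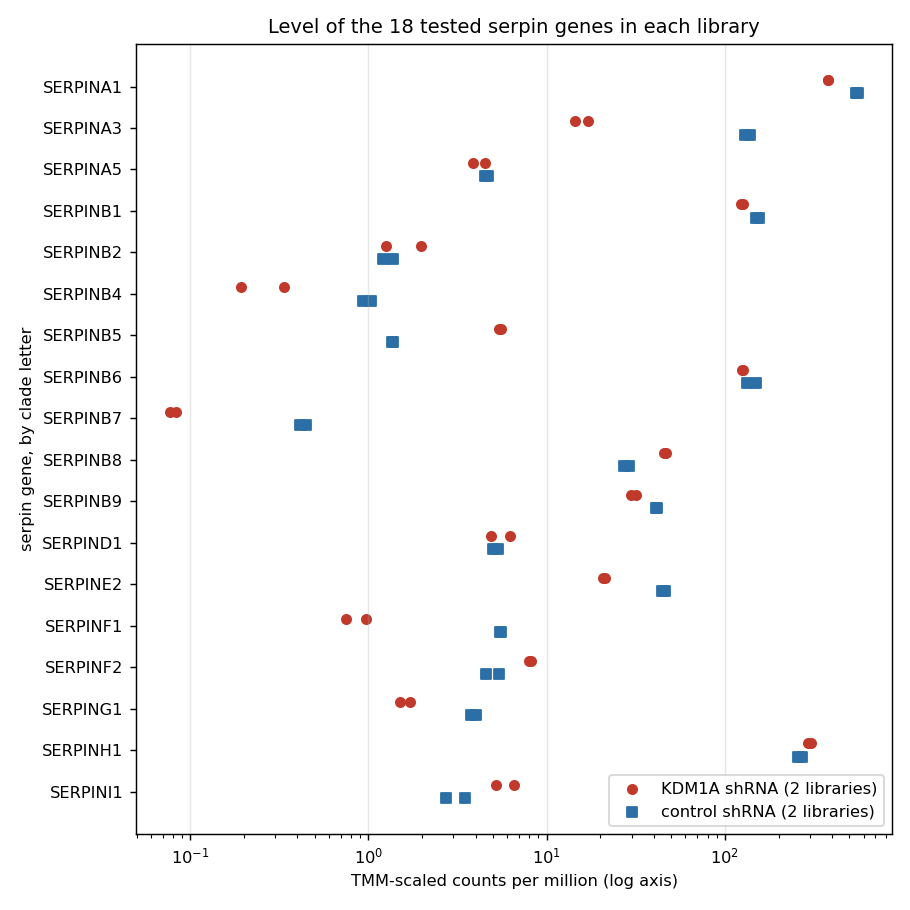
Level of each of the 18 tested serpins in each library, in TMM-scaled CPM on a log axis, with red circles for the 2 KDM1A shRNA libraries and blue squares for the 2 control shRNA libraries. Group means span from 0.0805 CPM for SERPINB7 in KDM1A shRNA cells to 551 CPM for SERPINA1 in control shRNA cells, and libraries of a group lie close together for the abundant genes.

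Measured per length of the canonical transcript, in reads per kilobase and per library size (RPKM, from TMM-scaled CPM), the serpins described here stood in a different order in the 2 groups. In KDM1A shRNA cells SERPINH1 (145 RPKM on average) came before SERPINA1 (126), SERPINB6 (95.1), SERPINB1 (50.4), SERPINB8 (13.9), SERPINA3 (10.8 and 9.17 in its 2 libraries), SERPINE2 (9.41) and SERPINB9 (7.42). In control shRNA cells the order was SERPINA1 (183 RPKM), SERPINH1 (128), SERPINB6 (108), SERPINA3 (85.1), SERPINB1 (61.4), SERPINE2 (20.3), SERPINB9 (9.91 and 10.1 in its 2 libraries) and SERPINB8 (8.43). SERPINA3 and SERPINE2 overlapped between libraries of KDM1A shRNA cells and were apart in control shRNA cells. The serpins with an average below 5 RPKM in both groups were SERPINI1, SERPINF2, SERPIND1, SERPINB5, SERPINA5, SERPING1, SERPINB2, SERPINF1, SERPINB4 and SERPINB7. Summed over the 34 genes, their transcripts held 0.106% and 0.109% of gene reads in KDM1A shRNA libraries, against 0.138% and 0.139% in control shRNA libraries. SERPINA1 made up 35.5% and 34.9% of these reads in KDM1A shRNA libraries and 39.1% and 40.2% in control shRNA libraries. The share of SERPINH1 was 27.4% and 28.1% in KDM1A shRNA libraries, against 18.6% and 19.4% in control shRNA libraries.

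Clade A holds secreted proteins that are made mainly in the liver and circulate in plasma. Of its 11 genes, 3 were tested, 2 fell and SERPINA5 did not pass. SERPINA3, alpha-1-antichymotrypsin, an acute phase protein that inhibits cathepsin G and chymases, fell more than any other tested serpin. It had 409 and 373 reads in KDM1A shRNA libraries, against 3709 and 3150 in control shRNA libraries, and no KDM1A shRNA library came near the control level. Its level was 15.8 ± 1.85 CPM in KDM1A shRNA cells and 134 ± 6.11 CPM in control shRNA cells, so that 11.8% of the control level was left. The log2 fold change was -3.09 (SE 0.07, adjusted p = 9.9e-14, edgeR).

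SERPINA1, alpha-1-antitrypsin, the main plasma inhibitor of neutrophil elastase, had 9018 and 9760 reads in KDM1A shRNA libraries, against 14528 and 13567 in control shRNA libraries. The groups were apart, at 377 ± 1.22 CPM in KDM1A shRNA cells and 551 ± 11.9 CPM in control shRNA cells (log2 fold change -0.55, SE 0.04, edgeR adjusted p = 8.7e-09). SERPINA5, the protein C inhibitor, which also inhibits urokinase, had 92 and 116 reads in KDM1A shRNA libraries and 126 and 109 in control shRNA libraries. Its CPM values overlapped, and the log2 difference was -0.14 with a 95% interval of -0.47 to 0.19 (edgeR adjusted p = 0.46). SERPINA6, the cortisol carrier, SERPINA9 and SERPINA12 had 1 read each over the 4 libraries. Angiotensinogen, AGT, belongs to clade A by descent but has no SERPIN symbol in the files and was not counted; it had 64 and 70 reads in KDM1A shRNA libraries and 61 and 41 in control shRNA libraries (log2 fold change 0.43, edgeR adjusted p = 0.096).

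Because clade A is a liver family, markers of hepatocytes were read beside it. Their summed level was 1.09 and 1.28 CPM in KDM1A shRNA libraries and 5.49 and 5.57 CPM in control shRNA libraries, over 8 genes. APOA2 and TTR had 0 reads in every library and ALB at most 2. Of the 8, only APOB and HP were tested, and both fell, HP having passed the filter through the control libraries alone. Haptoglobin, HP, an acute phase gene, made up most of the sum in control shRNA cells, with 6 and 10 reads in KDM1A shRNA libraries, against 99 and 102 in control shRNA libraries (log2 fold change -3.60, SE 0.29, edgeR adjusted p = 8.2e-08).

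**Figure D2:**
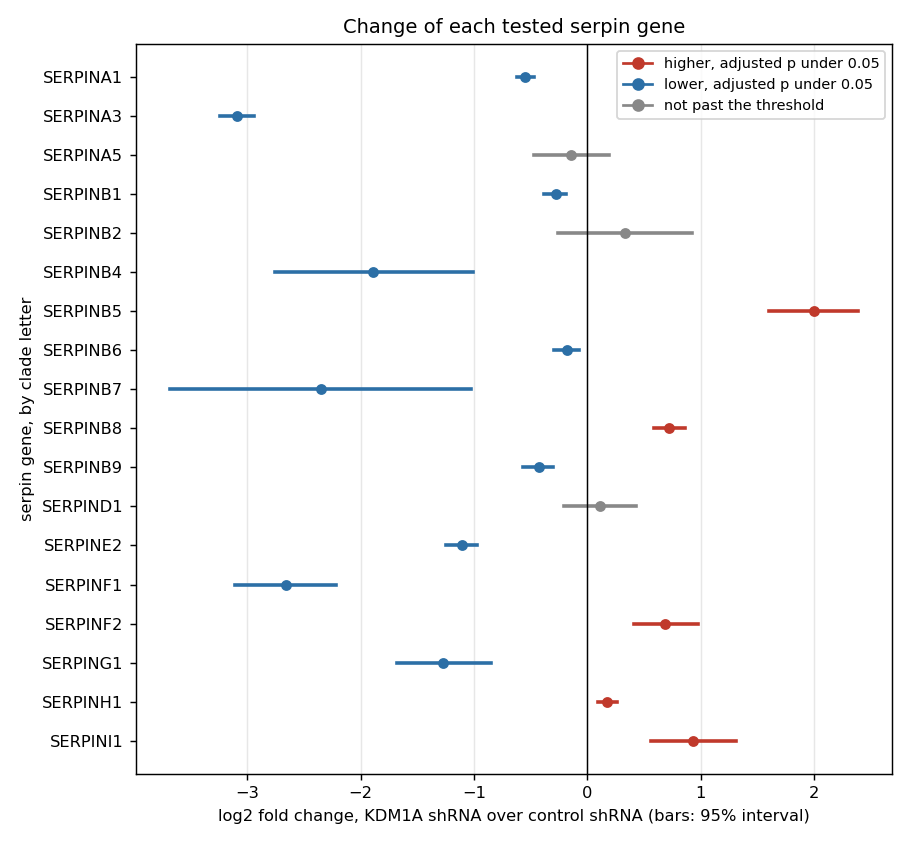
Log2 fold change of each of the 18 tested serpins, KDM1A shRNA over control shRNA, with its 95% interval as a bar and colour for the call. The points run from -3.09 for SERPINA3 to 2.00 for SERPINB5, and the intervals of SERPINA5, SERPINB2 and SERPIND1 span 0.

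SERPINE2, protease nexin 1, which inhibits thrombin and urokinase, had 493 and 550 reads in KDM1A shRNA libraries, against 1189 and 1115 in control shRNA libraries (20.9 ± 0.517 and 45.2 ± 1.11 CPM). The log2 fold change was -1.11 (SE 0.07, edgeR adjusted p = 3.9e-09), with both groups tight and far apart. SERPINE3 had 1 read in all.

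The remaining secreted serpins moved in both directions. SERPINF1, pigment epithelium-derived factor, which inhibits no protease and is known as an inhibitor of blood vessel growth, had 18 and 25 reads in KDM1A shRNA libraries, against 148 and 133 in control shRNA libraries. That is 0.860 ± 0.154 CPM in KDM1A shRNA cells and 5.50 ± 0.031 CPM in control shRNA cells, with 15.6% of the control level left (log2 fold change -2.66, SE 0.21, edgeR adjusted p = 6.7e-08). SERPINF2, alpha-2-antiplasmin, the fast inhibitor of plasmin, moved the other way. It had 195 and 206 reads in KDM1A shRNA libraries and 122 and 132 in control shRNA libraries, with no overlap (log2 fold change 0.69, SE 0.13, edgeR adjusted p = 0.00044).

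SERPING1, the C1 inhibitor, which stops the first proteases of the complement cascade and kallikrein, had 41 and 39 reads in KDM1A shRNA libraries, against 107 and 91 in control shRNA libraries (log2 fold change -1.27, SE 0.19, edgeR adjusted p = 6.2e-05). SERPIND1, heparin cofactor II, a thrombin inhibitor, had 117 and 160 reads in KDM1A shRNA libraries and 133 and 130 in control shRNA libraries. Its groups overlapped, with a log2 difference of 0.11 and a 95% interval of -0.21 to 0.43 (edgeR adjusted p = 0.57). It lies inside an intron of PI4KA on the opposite strand, and reads of both strands cannot be told apart where the counting setting is not given. SERPINC1, antithrombin, had 2 and 3 reads in KDM1A shRNA libraries, against 0 and 1 in control shRNA libraries.

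SERPINI1, neuroserpin, an inhibitor of tissue plasminogen activator in the nervous system, rose. It had 125 and 170 reads in KDM1A shRNA libraries, against 73 and 85 in control shRNA libraries (5.90 ± 0.968 and 3.11 ± 0.550 CPM). The groups did not meet, with a log2 fold change of 0.93 (SE 0.18, edgeR adjusted p = 0.00037). SERPINI2 had 3 and 1 reads in KDM1A shRNA libraries and 0 in both control shRNA libraries. SERPINH1, known as HSP47, inhibits no protease. It sits in the endoplasmic reticulum and holds procollagen during folding. It had 6961 and 7849 reads in KDM1A shRNA libraries, against 6903 and 6558 in control shRNA libraries, or 297 ± 9.58 and 264 ± 8.89 CPM. The groups were apart by little (log2 fold change 0.17, SE 0.04, edgeR adjusted p = 0.0020), and without KDM1A shRNA replicate 2 the gene no longer passed (0.14, edgeR adjusted p = 0.092).

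Clade B differs from the rest in lacking a classical signal peptide, and its members act mainly inside the cell, where they guard against proteases that leak from lysosomes and granules. Of its 13 genes, 8 were tested, 2 rose and 5 fell. SERPINB5, maspin, which inhibits no protease and is known as a suppressor of invasion in breast epithelium, rose more than any other tested serpin. It had 129 and 144 reads in KDM1A shRNA libraries, against 37 and 33 in control shRNA libraries. That is 5.48 ± 0.138 CPM in KDM1A shRNA cells and 1.37 ± 0.015 CPM in control shRNA cells, a 3.99-fold rise with no overlap (log2 fold change 2.00, SE 0.18, edgeR adjusted p = 3.7e-07). It remained a rare transcript, with 2.12 RPKM in KDM1A shRNA cells and 0.530 RPKM in control shRNA cells.

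SERPINB8, an inhibitor of the proprotein convertase furin, also rose, with 1096 and 1203 reads in KDM1A shRNA libraries, against 723 and 703 in control shRNA libraries (log2 fold change 0.72, SE 0.06, edgeR adjusted p = 2.5e-07). Its exons overlap those of HMSD on the same strand, and 8.47% of its transcript's 100-base windows occur in HMSD as well. Some reads of the pair may therefore not have been assigned, which was not checked. HMSD had 135 and 139 reads in KDM1A shRNA libraries, against 76 and 63 in control shRNA libraries (log2 fold change 1.02, SE 0.16, edgeR adjusted p = 7e-05).

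SERPINB1, SERPINB9 and SERPINB6 fell by small steps. SERPINB1, an inhibitor of neutrophil elastase and cathepsin G, had 2934 and 3282 reads in KDM1A shRNA libraries, against 4151 and 3612 in control shRNA libraries (log2 fold change -0.28, SE 0.04, edgeR adjusted p = 5.9e-05). SERPINB9, the inhibitor of granzyme B, had 757 and 770 reads in KDM1A shRNA libraries, against 1100 and 1015 in control shRNA libraries (log2 fold change -0.43, SE 0.06, edgeR adjusted p = 4.1e-05). SERPINB6, which inhibits cathepsin G, had 2977 and 3245 reads in KDM1A shRNA libraries, against 4018 and 3226 in control shRNA libraries. Its level was 125 ± 1.04 CPM in KDM1A shRNA cells and 142 ± 12.1 CPM in control shRNA cells, and the control libraries lay apart from each other. Its log2 fold change was -0.18 (SE 0.05, edgeR adjusted p = 0.0092). The call was lost without control shRNA replicate 1 (-0.09, edgeR adjusted p = 0.060), without KDM1A shRNA replicate 1 (-0.17, edgeR adjusted p = 0.089) and without KDM1A shRNA replicate 2 (-0.19, edgeR adjusted p = 0.063).

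The other members of clade B were scarce. SERPINB2, plasminogen activator inhibitor type 2, had 30 and 51 reads in KDM1A shRNA libraries and 37 and 29 in control shRNA libraries. Its KDM1A shRNA libraries differed from each other more than the groups did, with a log2 difference of 0.33 and a 95% interval of -0.26 to 0.92 (edgeR adjusted p = 0.33). SERPINB7, megsin, had 2 reads in each KDM1A shRNA library, against 12 and 10 in control shRNA libraries (log2 fold change -2.35, SE 0.62, edgeR adjusted p = 0.0048), and did not pass in DESeq2 (-2.42, adjusted p = 0.078).

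SERPINB3 and SERPINB4, the squamous cell carcinoma antigens, are a recent duplication and inhibit cathepsin L and cathepsin G among other proteases. SERPINB4 had 8 and 5 reads in KDM1A shRNA libraries, against 25 in each control shRNA library (log2 fold change -1.89, SE 0.41, edgeR adjusted p = 0.0012). SERPINB3 had 3 reads in each KDM1A shRNA library, against 10 and 15 in control shRNA libraries, and did not pass the filter. With no filter on low counts its log2 fold change was -1.98 (edgeR adjusted p = 0.012). It also entered the 3 fits that leave out 1 library and keep control shRNA replicate 2. That was the only library in which SERPINB3 was over the filter's minimum, so its entry follows from its highest library. The log2 fold changes were -2.31 without control shRNA replicate 1, -2.03 without KDM1A shRNA replicate 1 and -1.93 without KDM1A shRNA replicate 2. Of the 100-base windows of either transcript, 3.55% occur in the other, and the files keep only uniquely aligned reads for genes, so the split of reads between the pair is uncertain.

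The promoters show how alike the pair is. The 250 bases before each start, from RefSeq's GRCh38.p14 promoter table, lie on the minus strand at chr18:63661894-63662143 and chr18:63644257-63644506. They agree at 247 of 250 positions (98.8%), and capitals mark the 3 that differ: G126A, G201A and C228T, counted from 1 at the 5′ end with the base of SERPINB3 first.
SERPINB3: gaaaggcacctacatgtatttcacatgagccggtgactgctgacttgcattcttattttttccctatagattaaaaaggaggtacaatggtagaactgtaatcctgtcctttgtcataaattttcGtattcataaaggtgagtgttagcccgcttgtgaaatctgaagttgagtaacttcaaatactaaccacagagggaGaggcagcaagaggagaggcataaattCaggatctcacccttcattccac
SERPINB4: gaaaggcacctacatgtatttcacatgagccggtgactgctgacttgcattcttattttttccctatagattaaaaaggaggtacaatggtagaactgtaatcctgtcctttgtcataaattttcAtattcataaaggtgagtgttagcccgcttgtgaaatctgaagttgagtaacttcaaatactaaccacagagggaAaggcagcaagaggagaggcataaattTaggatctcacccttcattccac
Both members of the pair had fewer reads in each KDM1A shRNA library than in either control shRNA library.

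The promoters of the serpins with the largest changes in each direction, and of the other clade B gene that rose, are given next for comparison. Each is the 250 bases before the first listed start on the plus strand, 5′ to 3′, in GRCh38.p14: chr14:94612141-94612390 for SERPINA3, chr18:63476708-63476957 for SERPINB5 and chr18:63969831-63970080 for SERPINB8. Capitals mark matches to the STAT motif TTCNNNGAA or the AP-1 motif TGANTCA, read on both strands, which did not overlap each other here. A kB motif was also searched, by its usual degenerate form.
SERPINA3: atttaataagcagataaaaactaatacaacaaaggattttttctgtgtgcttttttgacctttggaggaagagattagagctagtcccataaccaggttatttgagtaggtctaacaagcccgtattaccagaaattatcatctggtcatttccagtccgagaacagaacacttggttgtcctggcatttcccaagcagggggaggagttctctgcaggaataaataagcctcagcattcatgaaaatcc
SERPINB5: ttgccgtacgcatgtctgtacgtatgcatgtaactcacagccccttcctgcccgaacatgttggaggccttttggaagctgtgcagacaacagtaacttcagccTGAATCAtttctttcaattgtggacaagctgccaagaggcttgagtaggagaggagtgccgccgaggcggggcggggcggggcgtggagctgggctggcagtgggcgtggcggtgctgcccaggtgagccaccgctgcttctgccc
SERPINB8: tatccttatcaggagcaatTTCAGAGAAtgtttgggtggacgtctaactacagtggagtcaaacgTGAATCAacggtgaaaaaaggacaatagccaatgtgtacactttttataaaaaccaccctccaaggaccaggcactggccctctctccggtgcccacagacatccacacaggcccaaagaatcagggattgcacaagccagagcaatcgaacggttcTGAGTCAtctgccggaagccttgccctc
The SERPINA3 window held no match to any of the 3 motifs and 2 CG dinucleotides, against a median of 11 over the first promoter of every gene. The SERPINB5 window held an AP-1 match starting at -146 from the start and 13 CG dinucleotides. The SERPINB8 window held a STAT match at -231 and AP-1 matches at -185 and -28. No match says only that these letters are not in this window.

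RefSeq's table listed promoters for 27 of the 34 serpins, 15 of them tested. Of the first promoters, 8 (29.6%) held the STAT motif, 7 (25.9%) the AP-1 motif and 3 (11.1%) the kB motif. Over the first promoters of all 27305 genes the shares were 6.78% for STAT, 6.60% for AP-1 and 5.05% for kB. First promoters with a STAT match were those of SERPINB1 and SERPINB7, which fell, SERPINB8, which rose, and SERPINA5, which was not called. The rest were of SERPINA6, SERPINA11, SERPINB12 and SERPINI2, which were not tested. A kB match was held by SERPINB7, by SERPINH1, which rose, and by SERPINA4, which was not tested. The other first promoters with an AP-1 match were those of SERPINB2, which was not called, and of SERPINB12, SERPINB13, SERPINE3 and SERPINI2, which were not tested. SERPINB7, which fell, had no AP-1 match in its first promoter and 2 in each of its other listed promoters. The matches are a description of the letters and not of binding.

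Most serpins sit in clusters, which GENCODE's GRCh37 annotation placed by joining members no more than 500000 bases apart. Chromosome 14 held 10 clade A genes, from SERPINA10 (chr14:94746797-94759605) to SERPINA13 (chr14:95107062-95113331). SERPINA1 (chr14:94843084-94857030, minus strand) and SERPINA3 (chr14:95078721-95090392, plus strand) fell there, and 7 of the 10 had at most 3 reads in any library. The level summed over the cluster was 397 CPM in both KDM1A shRNA libraries, against 686 and 694 CPM in control shRNA libraries. The nearest tested gene outside, PPP4R4, a phosphatase regulatory subunit, had 19 and 12 reads in KDM1A shRNA libraries, against 58 and 66 in control shRNA libraries (log2 fold change -1.96, SE 0.30, edgeR adjusted p = 5.5e-05). Next to it IFI27L2 rose (0.22, edgeR adjusted p = 0.018) and IFI27 fell (-0.25, edgeR adjusted p = 0.00014). On the other side DICER1, the microRNA processing enzyme, had a log2 fold change of -0.20 (edgeR adjusted p = 0.0034).

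The chromosome 18 cluster, 10 clade B genes from SERPINB5 (chr18:61144191-61172318) to SERPINB8 (chr18:61637263-61687013), held called genes of both directions. The 2 serpins at its ends rose, SERPINB4 and SERPINB7 inside it fell, SERPINB2 did not pass, and the other 5 were not tested. Both lower calls are of the genes that passed the filter through the control libraries alone, so nothing rests on their number. Its summed level was 52.9 and 54.6 CPM in KDM1A shRNA libraries, against 31.5 and 33.6 CPM in control shRNA libraries, and SERPINB8 made up most of it. Beyond SERPINB5, VPS4B had a log2 fold change of 0.27 (edgeR adjusted p = 0.00043) and BCL2, the inhibitor of apoptosis, -0.55 (edgeR adjusted p = 0.0013). DSEL, beyond SERPINB8, had 0.80 (edgeR adjusted p = 7.4e-08).

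Many genes of the chromosome 18 cluster are known from keratinocytes, so that cell type's markers were read beside it. Over 8 genes their sum was 32.7 and 33.3 CPM in KDM1A shRNA libraries and 23.3 and 24.1 CPM in control shRNA libraries. KRT1, IVL, LOR and SPRR1B had 0 reads in every library and KRT14 at most 1. KRT5, KRT10 and FLG were the 3 tested genes, and all rose, FLG having passed the filter through the KDM1A shRNA libraries alone. KRT10 made up most of the sum, and FLG, filaggrin, had 35 and 31 reads in KDM1A shRNA libraries, against 2 and 0 in control shRNA libraries. The part of these genes in the changes of SERPINB5 and SERPINB8 was not tested.

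On chromosome 6 the 3 genes SERPINB1 (chr6:2832566-2842193), SERPINB9 (chr6:2887504-2903543) and SERPINB6 (chr6:2948393-2972399) all fell. Of the 3 nearest genes before them, WRNIP1 and GMDS also fell, by less (log2 fold change -0.12 for each, edgeR adjusted p = 0.0497 and 0.041), and MYLK4 did not pass. Of the 3 after them, RIPK1 rose (log2 fold change 0.20, edgeR adjusted p = 0.0018), and NQO2 and BPHL did not pass. On chromosome 17 SERPINF2 (chr17:1646130-1658559) and SERPINF1 (chr17:1665323-1680859) lie side by side on the plus strand and moved in opposite directions. In sum they had 8.89 and 8.95 CPM in KDM1A shRNA libraries, against 10.1 and 10.9 CPM in control shRNA libraries. Past SERPINF1, SMYD4 and RPA1 rose with log2 fold changes of 0.37 and 0.25 (edgeR adjusted p = 0.00040 and 4.6e-05), and RTN4RL1 fell (-1.34, edgeR adjusted p = 0.00052). On the side of SERPINF2, TLCD2 fell (-0.54, edgeR adjusted p = 0.00047), and WDR81 and PRPF8 did not pass. SERPINI1 (chr3:167453031-167543357) lies in a pair with SERPINI2 (chr3:167159702-167196760). PDCD10, between the members of the pair, and GOLIM4, past SERPINI1, did not pass (log2 fold change 0.07 and 0.09, edgeR adjusted p = 0.24 and 0.17). BCHE, butyrylcholinesterase, lies farther off on the side of SERPINI2 (chr3:165490692-165555250) and rose more than any tested gene beside a cluster. It had 688 and 684 reads in KDM1A shRNA libraries, against 125 and 109 in control shRNA libraries (log2 fold change 2.59, SE 0.10, edgeR adjusted p = 3.8e-11). Next to it SLITRK3 fell to 2 and 0 reads in KDM1A shRNA libraries, against 17 and 11 in control shRNA libraries (-3.61, SE 0.77, edgeR adjusted p = 0.0010), and it too passed the filter through the control libraries alone.

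Over all clusters, 34 genes lay beside or among the serpins, 25 were tested, 8 rose and 9 fell, or 68.0% called, against 83.3% of the tested serpins and 56.1% of all genes. The difference between these shares was not tested.

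**Figure D3:**
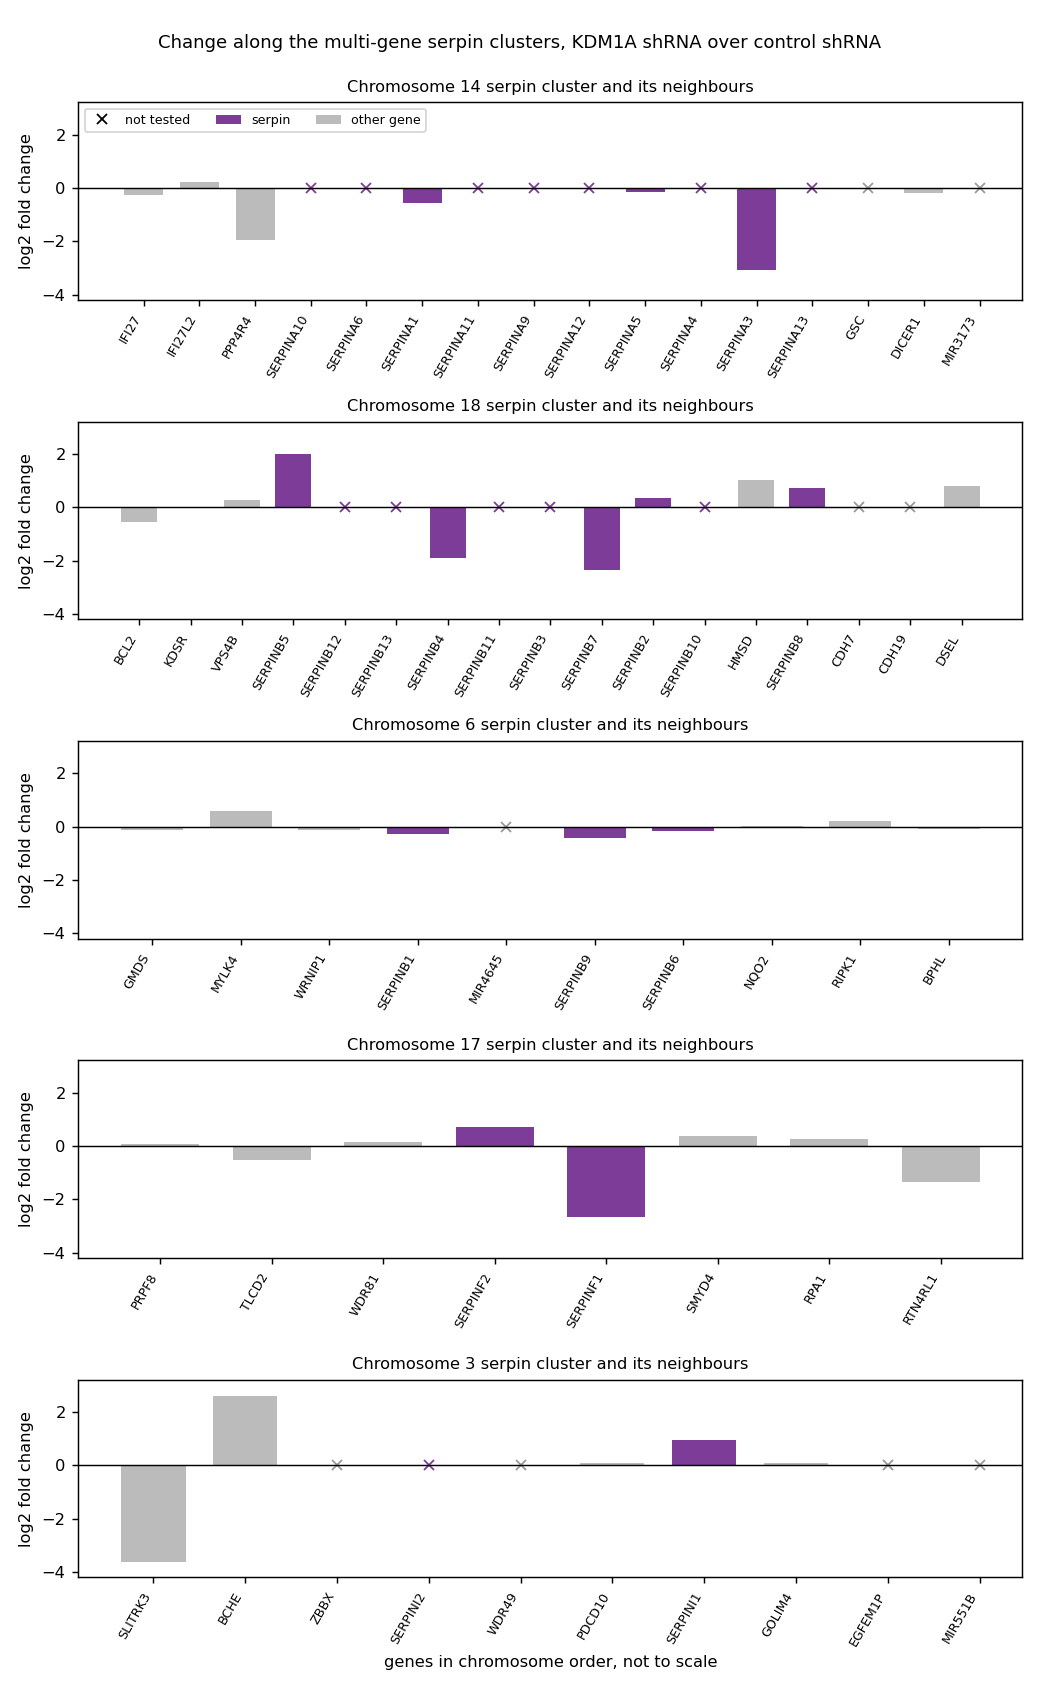
Log2 fold change along the 5 multi-gene serpin clusters, KDM1A shRNA over control shRNA, with genes in chromosome order and not to scale. Purple bars are serpins, grey bars other genes and crosses genes that were not tested. The 3 serpins on chromosome 6 point the same way, the 2 on chromosome 17 opposite ways, and those on chromosome 18 include both directions.

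The proteases and partners of the serpins were read from lists written from general knowledge. Of the genes for plasminogen activation and its receptors, 11 of 13 were tested, 5 rose and 5 fell, with a median log2 fold change of -0.04 beside -0.005 for all genes. PLAU, urokinase, the protease that SERPINE2 and SERPINB2 inhibit, rose, with 2339 and 2625 reads in KDM1A shRNA libraries, against 1235 and 1160 in control shRNA libraries (log2 fold change 1.09, SE 0.05, edgeR adjusted p = 3.2e-10). PLAT, tissue plasminogen activator, rose by less, at 409 ± 5.38 CPM in KDM1A shRNA cells and 331 ± 4.41 CPM in control shRNA cells (log2 fold change 0.31, edgeR adjusted p = 4.2e-06). SORL1, a sorting receptor that binds urokinase, rose (1.04, edgeR adjusted p = 2e-08). VLDLR, a receptor that clears complexes of proteases with serpins, fell (-1.84, edgeR adjusted p = 1e-09). The transcripts of both activators were thus higher in KDM1A shRNA cells. The serpins described here that inhibit the activators or plasmin went in both directions. SERPINE2 was lower (-1.11), SERPINI1 and SERPINF2 were higher (0.93 and 0.69), and SERPINA5 and SERPINB2 were not called. A link between these group differences was not tested.

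Of the coagulation factors and thrombin receptors, 8 of 16 were tested, 4 rose and 2 fell (median log2 fold change 0.35). F3, tissue factor, which starts coagulation, rose to 479.9 ± 0.761 CPM in KDM1A shRNA cells, against 259 ± 7.28 CPM in control shRNA cells (log2 fold change 0.89, SE 0.04, edgeR adjusted p = 6.8e-11). F2R, the thrombin receptor, fell (-0.38, edgeR adjusted p = 1.3e-05), and F2RL1, a related receptor cut by trypsin-like proteases, rose (0.36, edgeR adjusted p = 1.7e-06). F12, factor XII, a target of the C1 inhibitor, fell to 29 and 41 reads in KDM1A shRNA libraries, against 105 and 113 in control shRNA libraries (-1.60, edgeR adjusted p = 1.4e-05).

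C1R and C1S, the complement proteases that SERPING1 inhibits, fell with it, and these were the 2 tested of 4 targets listed. C1R had 617 and 684 reads in KDM1A shRNA libraries, against 2340 and 2131 in control shRNA libraries (log2 fold change -1.74, SE 0.06, edgeR adjusted p = 4.8e-12). C1S had 235 and 268 reads in KDM1A shRNA libraries, against 1069 and 848 in control shRNA libraries (-1.89, SE 0.09, edgeR adjusted p = 3e-10). SERPING1 and the 2 tested targets of this list were thus lower, with log2 fold changes from -1.89 to -1.27.

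Of 35 other serine proteases, which included the kallikreins, granzymes and neutrophil proteases, 10 were tested, 4 rose and 3 fell (median 0.43), and 16 had 0 reads in all libraries. PRSS23, a secreted serine protease, rose to 535 ± 9.15 CPM in KDM1A shRNA cells, against 349 ± 2.13 CPM in control shRNA cells (log2 fold change 0.62, edgeR adjusted p = 2.3e-09). HTRA1, a secreted protease of the matrix, and ST14, matriptase, rose by 0.40 and 0.46 on the log2 scale (edgeR adjusted p = 1.8e-06 and 0.0013). PRSS8, prostasin, which matriptase activates, fell to 14 and 12 reads in KDM1A shRNA libraries, against 44 and 43 in control shRNA libraries (-1.70, edgeR adjusted p = 0.00023).

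The cysteine cathepsins, lysosomal proteases that some clade B serpins inhibit, were all tested, and of the 11 genes 2 rose and 5 fell (median -0.11). Fewer were called lower with either KDM1A shRNA library left out, as was so over all genes. CTSZ and CTSC rose (log2 fold change 0.53 and 0.58, edgeR adjusted p = 1.6e-08 and 1.9e-08). CTSL2 fell to 26 and 29 reads in KDM1A shRNA libraries, against 127 and 108 in control shRNA libraries (-2.05, edgeR adjusted p = 7.6e-07), and CTSF fell by less (-0.75, edgeR adjusted p = 4e-05).

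Of the collagens and collagen folding enzymes that work beside SERPINH1, 14 of 16 were tested, 3 rose and 9 fell (median -0.13). With either KDM1A shRNA library left out fewer were called lower, as was so over all genes. FKBP10, a chaperone of procollagen in the same compartment, fell to 44 and 48 reads in KDM1A shRNA libraries, against 690 and 641 in control shRNA libraries (log2 fold change -3.81, SE 0.12, edgeR adjusted p = 3.4e-12). P4HA1, a subunit of prolyl hydroxylase, fell to 132 ± 5.86 CPM in KDM1A shRNA cells, against 232 ± 4.05 CPM in control shRNA cells (-0.81, edgeR adjusted p = 1e-09). COL5A1 and COL1A1, 2 of the chains that are folded, rose (0.43 and 0.86, edgeR adjusted p = 5.2e-07 and 2.1e-06). The chains COL1A2 and COL3A1 had at most 7 and 4 reads in any library and were not tested. SERPINH1 had the direction of the 3 genes that rose and not of the 9 that fell. Its own rise was small (0.17), and its call did not hold without KDM1A shRNA replicate 2.

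Protease inhibitors outside the family were also mostly called. Of 39 listed, 26 were tested, 7 rose and 14 fell (median -0.12), or 53.8% lower, beside 55.6% of the tested serpins and 28.8% of all genes. PI3, elafin, an elastase inhibitor, fell to 133 and 157 reads in KDM1A shRNA libraries, against 1318 and 1252 in control shRNA libraries (log2 fold change -3.11, SE 0.08, edgeR adjusted p = 8.3e-13), beside -3.09 for SERPINA3. SLPI, which inhibits the same enzyme, fell to 2925 and 3173 reads in KDM1A shRNA libraries, against 6674 and 5506 in control shRNA libraries (-0.96, edgeR adjusted p = 4.6e-10). TFPI and TFPI2, Kunitz inhibitors that act on tissue factor and plasmin among other proteases, fell as well (-0.70 and -2.24, edgeR adjusted p = 1.1e-09 and 3.1e-10).

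**Figure D4:**
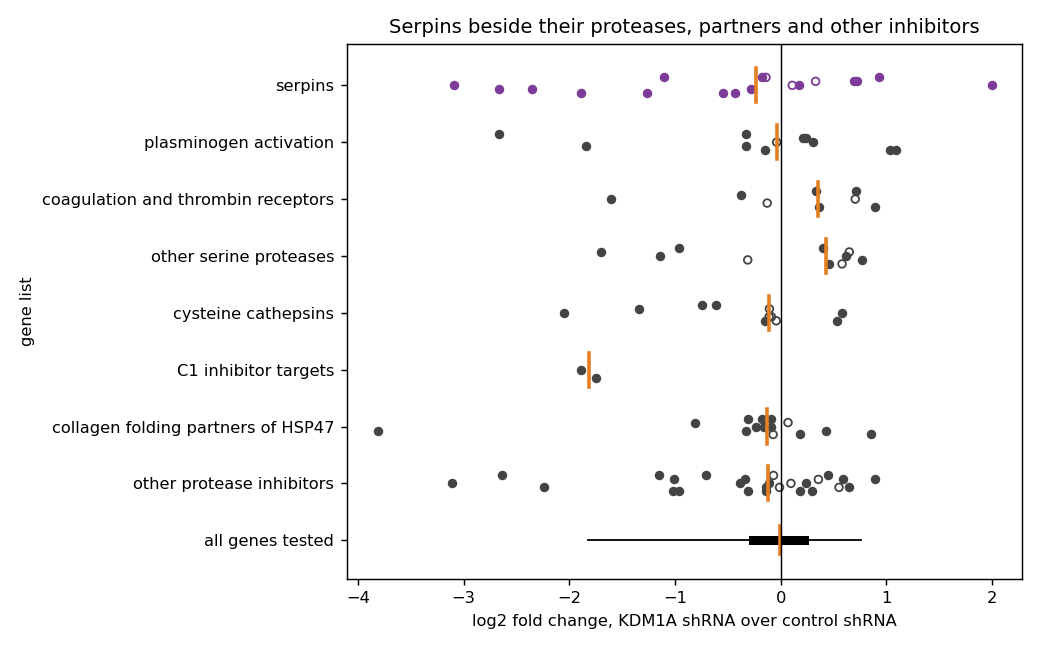
Log2 fold change, KDM1A shRNA over control shRNA, of each tested gene of the serpins (purple) and of the 7 lists of proteases, partners and other inhibitors (grey), with filled circles for an adjusted p under 0.05, open circles for the rest and an orange line at the median. The bottom line gives the 5th to 95th percentile of all 14012 genes, with the thick part from the 25th to the 75th; the serpin median lies at -0.23 and that of all genes at -0.005.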

How the data were processed

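RNA was measured in 4 libraries, 2 per group. The authors deposited raw read counts per gene symbol, with no scaling. They had been made with HTSeq from alignments to hg19 by TopHat2 2.0.8b, after CASAVA 1.8.2, per the submitters' processing notes. No source used here gives the strand setting. The 5 summary lines per file were left out of library sizes; non-unique alignments were 29.7% to 32.2% of their totals.

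Differences were tested in R 4.3.3 by the quasi-likelihood test of edgeR 4.0.16 (TMM, filterByExpr with minimum count 10 and total 15, no term but group), adjusted by Benjamini-Hochberg over 14012 genes with a threshold of 0.05. Standard errors are the absolute log2 fold change over the square root of F. Levels are TMM-scaled CPM as mean ± SD of 2 libraries; 95% intervals come from the same fit. Alternatives used DESeq2 1.42.0, limma 3.58.1, other scalings and filters, a replicate block and leaving out each library. Positions and transcript lengths came from GENCODE v44lift37 (GRCh37), in which the 34 members were found, 1 by an older symbol. Another gene that the symbol rule finds is not reported here; counts, shares and figures leave it out.

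The members and lists were chosen with earlier results of these data known. Named are the 34 serpins, KDM1A and other label checks, the 4 tested genes of each list with the smallest p, and the 3 nearest genes beside each cluster. Hepatocyte and keratinocyte markers were named after their values were seen.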

Additional observations from a re-analysis of the deposited data

How the results depend on the processing

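Of 207 values of single serpins under the alternatives, 200 kept their direction and their side of the threshold, 5 kept the direction and lost the call (given beside SERPINB6, SERPINB7 and SERPINH1), and 2 changed sign. Both of these came from leaving out KDM1A shRNA replicate 2 and concern genes that were never called: across the left-out libraries SERPINB2 ranged from -0.04 to 0.61 and SERPIND1 from -0.08 to 0.27. SERPINA3 stayed between -3.21 and -2.97 and SERPINB5 between 1.97 and 2.02 over all alternatives run. With a mean of 5 CPM or more required, 10 serpins were tested, of which 3 were higher and 6 lower, since fewer genes entered. Over the 10781 genes that entered, 3111 were higher and 3148 lower. In DESeq2, 5 serpins were higher and 9 lower. Over all genes DESeq2 called 3000 higher and 3116 lower, fewer than the 3828 and 4033 of the main fit. Where 1 library is left out, a group of 1 library is assumed to vary like the other, so counts of serpins are not given for those fits. With replicate number as a block, 5 serpins were higher and 10 lower, and over all genes 3978 and 4164. Same-numbered libraries had deviations correlated at 0.0111. The labels do not say whether the numbers pair libraries, and this value cannot decide it. The median log2 fold change of all genes moved farthest with upper quartile scaling, to -0.03. Where a filter dropped a gene, that alternative gives no value for it. Serpins under about 10 reads, such as SERPINB7, are limited by depth.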

Other observations

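The remaining lists of markers of other cell types were summed in each library. Endothelial markers (5 genes) summed to 54.0 and 56.1 CPM in KDM1A shRNA libraries, against 102 and 94.7 CPM in control shRNA libraries, and all 4 tested fell, of which CDH5 and VWF passed the filter through the control libraries alone. Leukocyte markers (7 genes) summed to 127 and 125 CPM in KDM1A shRNA libraries, against 179 and 182 CPM in control shRNA libraries, most of it CD68, and both tested genes fell. PTPRC, the defining leukocyte gene, had at most 4 reads in any library. Fibroblast markers (7 genes) summed to 109 and 101 CPM in KDM1A shRNA libraries, against 146 and 142 CPM in control shRNA libraries, most of it from DCN; of the 5 tested, 3 rose and 2 fell, of which PDGFRA passed the filter through the control libraries alone. The part of these genes in the levels of serpins was not tested.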
